A study of Mus musculus with 4 samples.

Results

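The protein genes of the cytosolic ribosome were compared between mouse hearts 28 days after myocardial infarction (MI) and hearts after a Sham operation. Members were all rows of the deposited gene table whose symbol has the form of a cytosolic ribosomal protein (Rps or Rpl with a number, Rplp0 to Rplp2, Rpsa and Rps27rt) and whose estimated counts sum to at least 48 over the 4 libraries, without rows named as pseudogenes by the ending -ps. This gave 83 members of 55401 rows. They comprise 45 proteins of the large subunit, 32 of the small subunit, the 3 stalk proteins, and 3 rows (Rpl32l, Rpl6l and Rps4l) that the table annotates without a protein-coding transcript. Of the 85 rows with such a name, Rpl10l (0 counts in all) and Rpl39l (0, 4, 0 and 4 counts) lay under the total of 48, and the member nearest to it, Rpl32l, had 261. All 83 passed the filter on low counts that was applied to the whole table.

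Poly(A) RNA from heart was sequenced in 2 Sham libraries, from mice whose chest was opened without ligation, and 2 MI libraries, from mice that had the ligation. All were taken at day 28. The labels name no strain, sex, age or number of animals per library. Cyanidin, the plant pigment in the series title, was not analysed here. The design text contrasts infarcted tissue with normal left ventricle, while each sample is labelled only as heart. In what follows, values listed for 4 libraries stand in the order Sham 1, Sham 2, MI 1 and MI 2. CPM are counts scaled to library size after trimmed-mean (TMM) normalization, and a log2 difference is MI minus Sham ± its standard error from edgeR. No source says that the replicates are separate animals, so each p-value rests on a spread between libraries that could be technical.

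The ribosome translates mRNA into protein. Its small subunit reads the message, its large subunit joins the amino acids, and a stalk on the large subunit recruits the elongation factors. Ribosomal protein mRNAs are among the most abundant in any cell, are made at matched levels, and mostly begin with a run of pyrimidines (C or T), the 5′ terminal oligopyrimidine (TOP) motif, through which mTOR and LARP1 control their translation. Striated muscle also makes Rpl3l, a paralogue that takes the place of Rpl3 near the catalytic centre of the large subunit.

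The start of transcription is shown for 8 members, because it is the feature that most of these genes share and because the later results turn on several of them. Each line holds 30 bases, 15 before the annotated RefSeq start and 15 from it on, 5′ to 3′ on the transcribed strand (GRCm38.p6), and capitals mark a C followed by at least 5 letters that are each C or T.
Rps6: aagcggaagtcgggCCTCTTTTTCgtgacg
Rpl15: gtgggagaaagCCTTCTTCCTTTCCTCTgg
Rplp2: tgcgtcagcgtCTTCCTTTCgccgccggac
Rps10: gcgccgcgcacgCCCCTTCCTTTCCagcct
Rps27: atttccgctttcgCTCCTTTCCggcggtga
Rps27rt: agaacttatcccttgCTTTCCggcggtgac
Rpl3l: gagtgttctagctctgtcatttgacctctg
Rpl36al: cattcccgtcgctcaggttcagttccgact
Rps6 lies at chr4:86857353-86857382 (minus strand), Rpl15 at chr14:18270972-18271001 (minus), Rplp2 at chr7:141447636-141447665 (plus), Rps10 at chr17:27635230-27635259 (minus), Rps27 at chr3:90213634-90213663 (minus), Rps27rt at chr9:114982725-114982754 (minus), Rpl3l at chr17:24727811-24727840 (plus) and Rpl36al at chr12:69184053-69184082 (minus). The promoter table held 61 of the 83 members. Such a run lay within the 30 bases in 36 of them (59.0%), against 6883 of all 27025 genes of the table (25.5%). In this and the next counts, a gene was counted if any of its annotated starts had the run. Genes with more annotated starts thus had more chances to be counted. Read on the opposite strand the same search found 5 members (8.20%) and 7736 genes (28.6%). Counted only where the run starts at the annotated first base, it was in 13 members (21.3%) and 553 genes (2.05%). The window of Rpl3l and that of Rpl36al held no such run, which says only that these letters are not in this window.

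Library totals were 66624106 to 75979320 estimated counts, of which transcripts from mitochondrial DNA took 32.6% to 34.0% in Sham and 27.3% to 30.9% in MI. Markers of heart muscle were abundant in all 4 libraries (summed level of 8 genes 55504, 51553, 40990 and 45359 CPM, 0 of them at 0), and those of fibroblasts were higher in MI (8 genes, 731, 964, 3700 and 2235 CPM). Single libraries stood apart in markers of neighbouring tissues. Atrial markers (6 genes) summed to 167, 5713, 2208 and 1743 CPM. Nppa, a peptide that stressed ventricles also make, gave 2174 and 1717 CPM of the MI sums, while Myl7, the atrial myosin light chain, had 0.346, 743, 0.683 and 0.271 CPM. Sham 2 also held 155 CPM of adipocyte markers against 0.53 or less elsewhere. Lung markers (7 genes) summed to 258.5 CPM in MI 1 with 0 of them at 0, and to 0.99, 3.17 and 1.17 elsewhere, where 5, 3 and 4 were at 0. Erythroid markers (4 genes) summed to 16174, 5541, 7845 and 10686 CPM, and neutrophil markers (4 genes) to 41.3, 6.93, 10.4 and 4.99. What part these differences in makeup have in the results below was not tested. In bulk tissue, fewer cells of a type and less RNA per cell cannot be told apart.

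Ribosomal protein transcripts as a whole were measured at nearly the same level in Sham and MI hearts. The members took 1.10%, 1.12%, 1.34% and 1.17% of all counts, a mean of 1.11% ± 0.013 (SD, n = 2) against 1.25% ± 0.116. Both MI values lay above both Sham values, with a difference of 0.143 percentage points (exact 2-sided permutation test, p = 0.33, the smallest that 2 against 2 libraries allow). Without the mitochondrial transcripts the shares were 1.67%, 1.66%, 1.84% and 1.70%, a ratio of the group means of 1.06 instead of 1.13. After TMM scaling the summed level of the members was 12563, 11498, 11668 and 11488 CPM, and the groups overlapped.

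Gene by gene, edgeR's quasi-likelihood test called 0 of 83 members at an adjusted p under 0.05 (their smallest adjusted p was 0.352) and 0 of all 18475 genes tested (0%). DESeq2 also called 0 members (smallest adjusted p = 0.124), against 638 genes in all (3.45%), and limma on log2(FPKM + 1) called 0. At an unadjusted p under 0.05, edgeR had 1 of 83 members in either direction, against 11.6% of all genes tested. This was Rps20, higher in MI, where the share over all genes was 7.12%, and 0 members were lower, against 4.51%. The median log2 difference of the members was -0.05 (quartiles -0.12 and 0.016), and that of all genes tested was 0.003 (quartiles -0.28 and 0.36). Differences were negative for 55 members and positive for 28 with TMM scaling, but for 8 and 75 with scaling to library totals, 9 and 74 on the FPKM scale, and 19 and 64 with mitochondrial transcripts removed. Those scalings moved the median of all genes to 0.23, to 0.15 or 0.20 (pseudocount 1 or 0.1) and to 0.14. The median of the members minus that of all genes lay between -0.059 and 0.047 over the scalings and filters tried with all 4 libraries, and was -0.007, -0.13, -0.037 and -0.029 without Sham 1, Sham 2, MI 1 and MI 2.

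**Figure D1:**
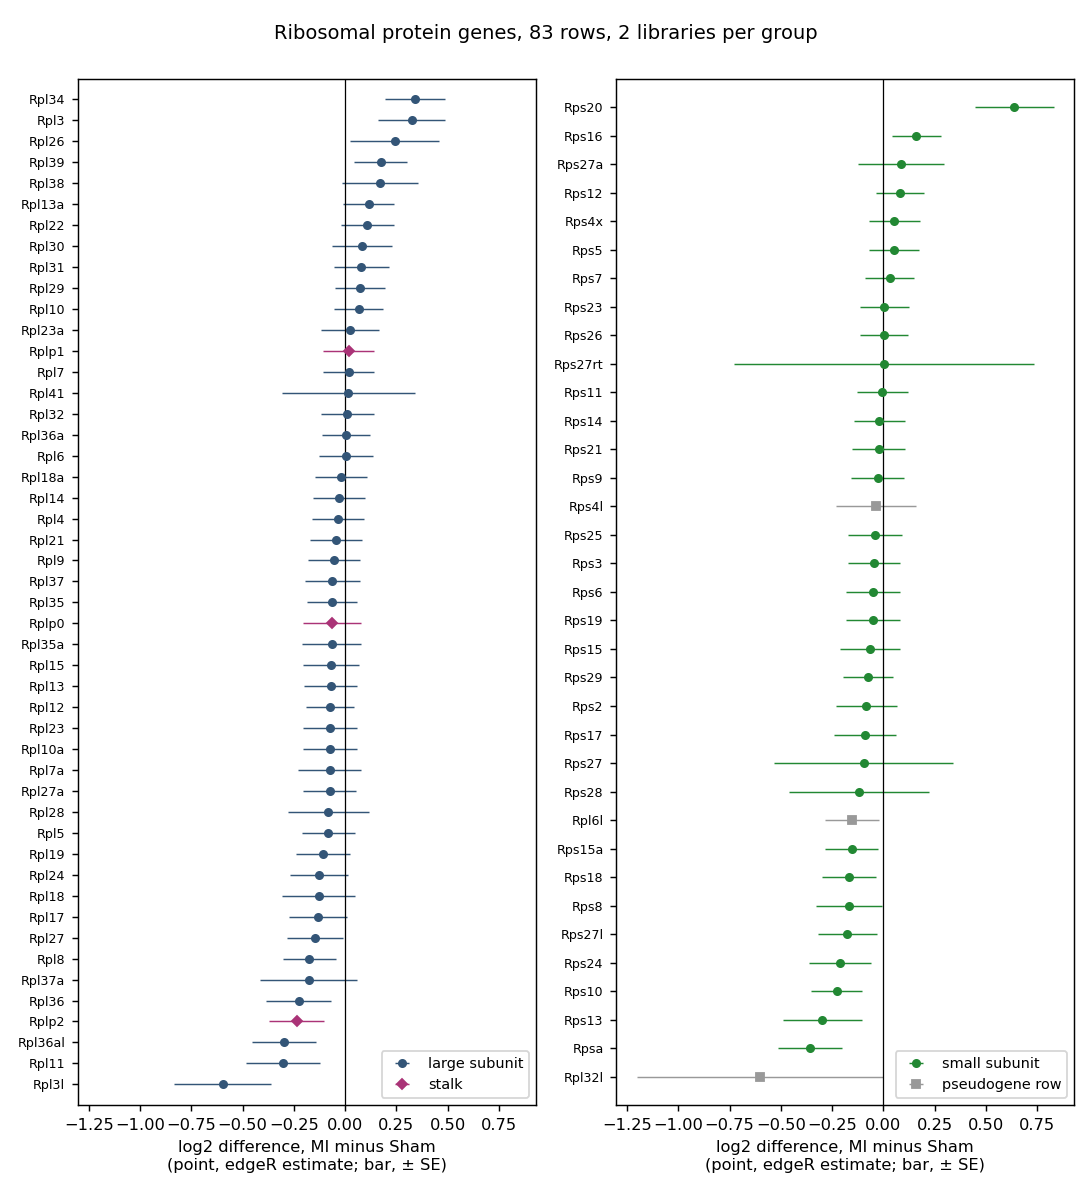
Log2 difference between MI and Sham (x axis, edgeR estimate; bars, ± SE) for each of the 83 members, with the large subunit and stalk on the left and the small subunit and the 3 rows without a protein-coding transcript on the right. Most members lie within 0.25 of 0, with Rps20 at 0.64 and Rpl3l at -0.60 furthest out among the protein-coding rows.

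**Figure D2:**
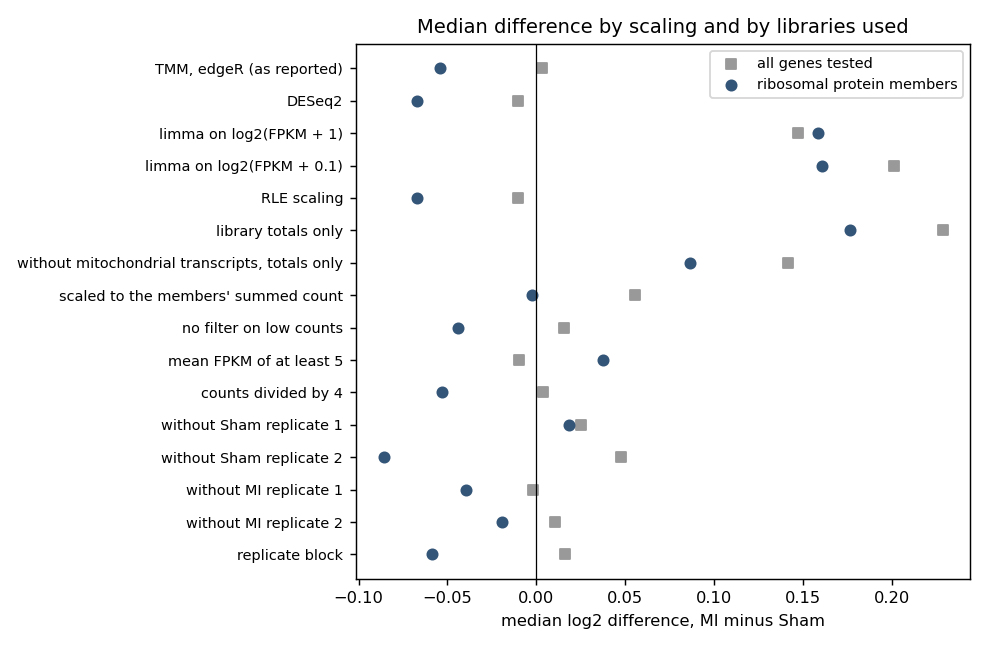
Median log2 difference (x axis, MI minus Sham) of the ribosomal protein members (circles) and of all genes tested (squares) under each scaling, filter and choice of libraries. Where scaling moves the circles to the right, to 0.18 with library totals, the squares move with them, to 0.23.

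The members also varied little between single libraries. The highest library was a median of 1.17 times the lowest over the 83 members, against 1.65 times over the 17371 tested genes detected in every library. These sets were not matched for level, and low counts alone widen such a ratio. The ratio was under 1.2 for 46 members and for 2006 of those genes, and over 1.5 for 9 members. These were Rps27rt (3.41), Rpl32l (2.99), Rps27 (2.03), Rpl3l (1.92), Rps20 (1.83), Rps28 (1.81), Rpl41 (1.61), Rpl37a (1.54) and Rps13 (1.53). An abundant member with little spread was Rpl7, with 275, 259, 272 and 269 CPM. Levels in CPM kept the groups apart for 9 members above (24.9% of all genes tested) and 13 below (21.9%), with overlap for 61. In FPKM, which carries no TMM scaling, the counts were 46 above (39.0%) and 2 below (8.89%), the latter being Rpl3l and Rpsa.

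Levels per length (FPKM) spanned a wide range. The median member had a mean of 58.9 FPKM over the 4 libraries. Highest were Rps15, a small subunit protein near the decoding site, at 366 FPKM, and the stalk proteins Rplp1 at 345 and Rplp0 at 278. Lowest were Rpl32l at 2.08, Rpl21 at 10.6 and Rps20 at 12.4. Part of this range follows the annotation. The count per FPKM unit tracked the summed length of all annotated exons of a gene with a Pearson r above 0.99 over the 83 members, so the deposited FPKM divides by every annotated exon, retained introns included. That length ran from 374 to 6270 bases. Its Spearman correlation with mean FPKM over the members was -0.49, a description over genes that share the libraries. Rps20, for example, was divided by 4080 bases and Rpl3 by 3175, against 1643 for Rpl3l and 374 for Rps27rt, so FPKM understates the former relative to the latter. Rows named as ribosomal protein pseudogenes, whose reads could be shared with the members, numbered 319 and took 0.102%, 0.107%, 0.119% and 0.112% of all counts.

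**Figure D3:**
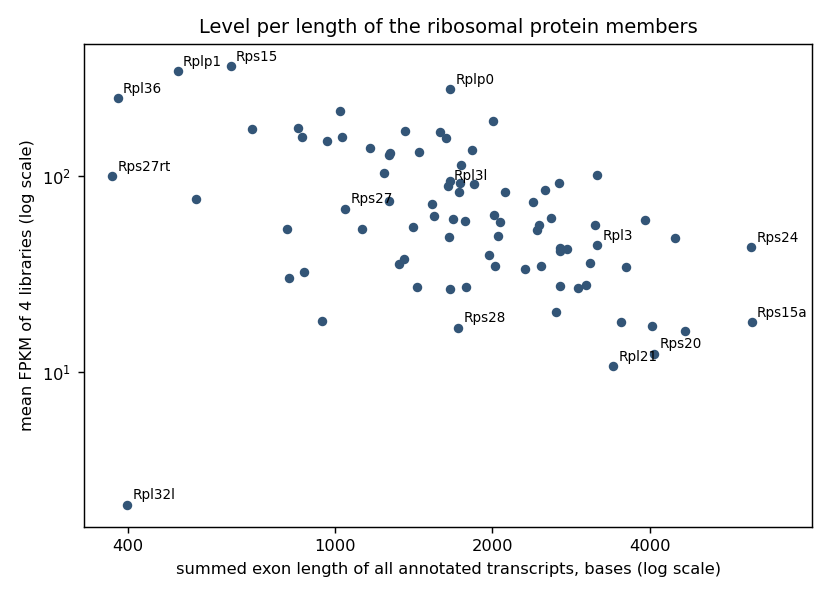
Mean FPKM over the 4 libraries (y axis, log scale) against summed exon length (x axis, bases, log scale) for the 83 members. Members with long annotated exons lie low, such as Rps20 at 12.4 and Rps15a at 17.9 FPKM, while the short Rplp1 and Rpl36 stand at 345 and 251.

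In the large subunit, 28 of 45 members were negative and 17 positive with TMM scaling (median -0.06), and 0 had an unadjusted p under 0.05 in either direction. Rpl34 (chromosome 3, 130726831 to 130730346) had 55.0, 46.8, 67.9 and 61.0 CPM. Both MI libraries were above both Sham libraries, and the log2 difference was 0.34 ± 0.14 (edgeR, adjusted p = 0.459), and 0.23 to 0.46 with any 1 library left out. Rpl3, a protein at the catalytic centre, had 128, 139, 187 and 148 CPM (0.33 ± 0.16, edgeR adjusted p = 0.512). The groups did not overlap, but MI 1 carried most of the difference, which was 0.16 without it. Rpl39, a small protein of the exit tunnel, had 40.1, 38.5, 46.8 and 41.9 CPM, and Rpl13a 185, 178, 204 and 189. In both the MI libraries lay above the Sham libraries by margins near 1 SE (0.17 ± 0.13 and 0.12 ± 0.13). Rpl26 had 227, 153, 227 and 223 CPM (0.24 ± 0.22). There Sham 2 alone was low, and without it the difference was -0.013. Rpl38 had 39.9, 43.8, 53.9 and 40.3 CPM (0.17 ± 0.18), with MI 1 alone high and a difference of -0.05 without it.

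Among the negative members of the large subunit, Rpl3l had the largest difference and is described with its paralogue below. Rpl11, which with Rpl5 binds 5S rRNA and, when unassembled, the p53 regulator Mdm2, had 118, 159, 113 and 112 CPM (-0.30 ± 0.18). Its groups did not overlap, but Sham 2 stood far above the others and the difference was -0.07 without that library. Rpl5 itself had 258, 266, 237 and 258 CPM, with overlapping groups and a difference of -0.08 ± 0.13. Rpl36 had 125, 102, 92.2 and 102 CPM (-0.23 ± 0.16), with Sham 1 alone high, and its sign was positive by 0.0033 with library totals. Rpl4, whose mean of 191 FPKM lay well above the median member, had 434, 408, 405 and 417 CPM and differed by -0.03 ± 0.13.

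Of the stalk proteins, Rplp2 had 148, 137, 114 and 128 CPM, lower in both MI libraries than in both Sham libraries (-0.24 ± 0.13, edgeR adjusted p = 0.549). The difference was -0.012 at the other end of the scalings and -0.14 at the least with 1 library left out. Its partner Rplp1 had 192, 179, 192 and 184 CPM (0.02 ± 0.12), and Rplp0, which anchors both to the ribosome, 547, 481, 492 and 490.1 (-0.06 ± 0.14). For these the groups overlapped.

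In the small subunit, 22 of 32 members were negative and 10 positive with TMM scaling (median -0.05), and Rps20 was the 1 member at an unadjusted p under 0.05. Rps20, a protein of the head of the small subunit (chromosome 4, 3831334 to 3835665, minus strand), had 42.2, 41.6, 76.0 and 54.5 CPM. The Sham libraries were nearly equal and both MI libraries lay above them, MI 1 the more so. Its log2 difference was 0.64 ± 0.19 (edgeR, adjusted p = 0.352), 0.39 without MI 1 and 0.87 without MI 2. MI 1 was also the library with lung transcripts and the highest fibroblast marker level. With all libraries the difference lay between 0.62 and 0.88 over the scalings and tools tried. Rps16, whose tail reaches the peptidyl site, had 93.2, 100.1, 107 and 109 CPM (0.16 ± 0.12), again with both MI libraries above.

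Rpsa, known also as the laminin receptor (chromosome 9, 120127689 to 120132369), had 415, 379.5, 282 and 338 CPM. Both MI libraries were lower than both Sham libraries, by -0.36 ± 0.16 on the log2 scale (edgeR, adjusted p = 0.463). The difference was -0.22 without MI 1 and -0.48 without MI 2, and it stayed negative under every scaling tried, the smallest being -0.14. Rps10 had 94.4, 89.6, 74.7 and 82.4 CPM (-0.23 ± 0.12) with both MI libraries below, although its difference was -0.004 at the other end of the scalings. Rps13 had 102, 75.6, 77.7 and 67.1 CPM (-0.30 ± 0.19). Its groups overlapped, and the difference was -0.06 without Sham 1. Rps6, the substrate of the S6 kinases, had 310.3, 282, 279 and 293 CPM (-0.05 ± 0.13). Rps27a, made as a fusion with ubiquitin, had 91.8, 72.0, 99.8 and 74.1 CPM (0.09 ± 0.21), with Sham 1 and MI 1 the higher libraries. The groups of Rps6 and Rps27a overlapped.

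**Figure D4:**
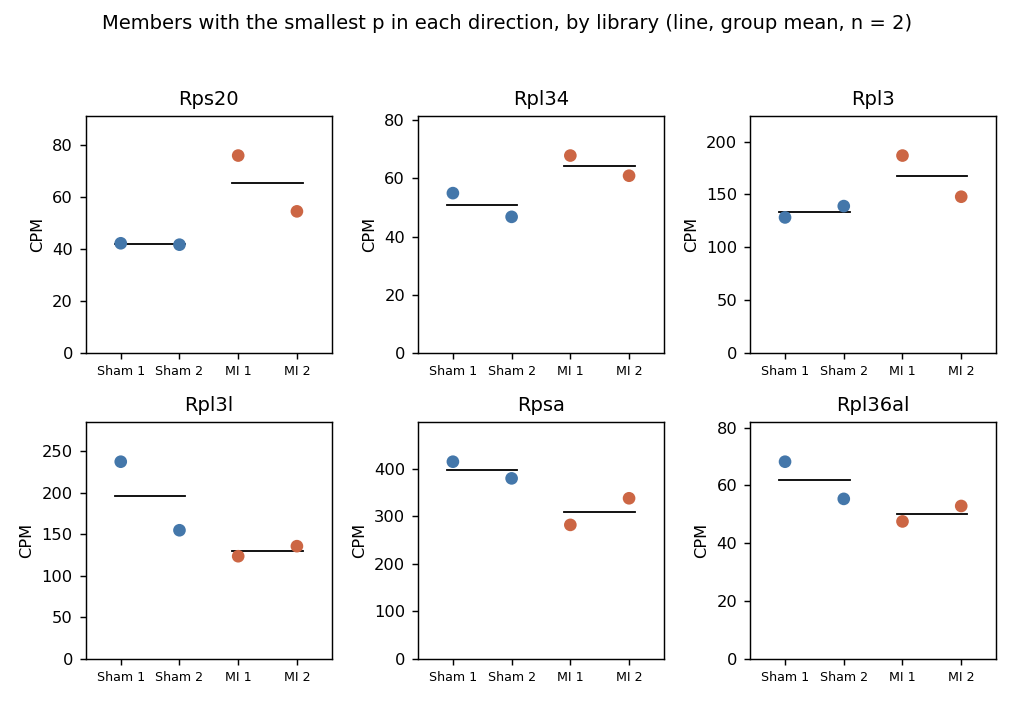
Level in each library (y axis, CPM, linear from 0) of the 3 members with the smallest p among those higher in MI (top) and among those lower (bottom); lines are group means of 2 libraries. All 6 keep the groups apart, and within a group Rps20, Rpl3 and Rpl3l spread widely, with Rps20 at 76.0 and 54.5 CPM in the MI libraries.

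The muscle paralogue Rpl3l was lower in both MI libraries while Rpl3 was higher in both. Rpl3l (chromosome 17, 24727820 to 24736143) had 237, 155, 124 and 136 CPM, and Sham 1 stood far above the other libraries. The log2 difference was -0.60 ± 0.23 (edgeR, adjusted p = 0.433). It was -0.25 without Sham 1 and -0.87 without Sham 2, with negative values from -0.61 to -0.34 over the scalings and tools tried with all libraries. Rpl3l is known from heart and skeletal muscle cells. With TMM scaling, differences of cardiomyocyte markers were negative for 7 of 8 genes (median -0.26), against 9192 of all 18475 genes tested. In CPM, 5 of the 8 were lower in MI without overlap of the groups, against 21.9% of all genes tested. Over the other scalings and tools computed for these markers their median ran from -0.27 to -0.03. That of all genes tested ran from -0.010 to 0.23. The part of these markers in the level of Rpl3l was not tested.

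A ratio of paralogues within a library does not depend on scaling between libraries. The log2 ratio of Rpl3l to Rpl3 counts was 0.89, 0.16, -0.60 and -0.12, so Rpl3l had more counts than Rpl3 in both Sham libraries and fewer in both MI libraries. The groups differed by -0.88 with a pooled SD of 0.44 (exact 2-sided permutation test, p = 0.33, the smallest possible here), and by -1.25 to -0.52 with any 1 library left out. Per length, Rpl3l had 3.58, 2.15, 1.28 and 1.77 times the FPKM of Rpl3. That ratio divides Rpl3 by the longer summed exons, although the coding lengths are near equal (1221 and 1209 bases), so which of the pair was higher in the MI libraries depends on the length used. The summed level of both genes was 366, 294, 310.4 and 283 CPM. Their coding sequences share 73.1% of bases, and their transcripts have no stretch of 150 bases, the read length, in common.

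By the likeness of level over the 4 libraries, the genes nearest to Rpl3l among 4474 compared (mean FPKM of at least 5) were Plbd1, Gm12922, Gpr146, H1f2 and Rpl9-ps6. Their distances, computed on centred log2 CPM, were 0.074, 0.082, 0.123, 0.129 and 0.141. Plbd1, for instance, had 41.2, 27.1, 22.9 and 24.2 CPM. This likeness is over 4 libraries only, and the first library carries much of it.

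Of 10 paralogue pairs considered, 8 had both genes measured. Rpl36al, which stands beside Rpl36a as a large subunit protein at the exit site, had 68.2, 55.3, 47.5 and 52.9 CPM (-0.30 ± 0.16, edgeR adjusted p = 0.524; -0.14 without Sham 1), while Rpl36a stayed at 47.0, 47.6, 47.8 and 47.1. The log2 ratio was 0.54, 0.22, -0.007 and 0.17, lower in both MI libraries by 0.30 on average with a pooled SD of 0.18 (exact permutation test, p = 0.33). The pair shares 87.7% of coding bases and no 150-base stretch. Rpl22l1 was a small fraction of Rpl22 throughout (2.57, 4.01, 4.84 and 2.73 FPKM against 23.7, 23.4, 32.5 and 27). Rpl7l1 had 37.7, 31.2, 32.4 and 31.5 CPM. Its log2 ratio to Rpl7 was -2.87 in Sham 1 and between -3.09 and -3.05 in the other libraries, a difference of -0.12 (exact permutation test, p = 0.33). Rps27l, a paralogue of Rps27 induced by p53, had 30.6, 26.4, 24.9 and 25.5 CPM (-0.18 ± 0.14), with both MI libraries just below both Sham libraries. Rps4l, annotated without a protein-coding transcript, had 18.3, 15.4, 21.8 and 17.0 FPKM against 136, 147, 185 and 158 for the X-linked Rps4x. As a muscle pair of the elongation machinery, Eef1a2 over Eef1a1 had log2 ratios of 0.72, -0.10, -0.30 and -0.03 (difference -0.47, pooled SD 0.43, exact permutation test, p = 0.67), and the groups overlapped.

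The strongest variation within the ribosomal proteins did not follow the groups. Rps27, a zinc finger protein of the small subunit on chromosome 3 (90212522 to 90213648), had 107, 55.2, 52.7 and 99.3 CPM. Rps27rt, a copy on chromosome 9 (114982366 to 114982739) annotated as a retrogene, had 20.7, 57.9, 60.8 and 17.8. Sham 1 and MI 2 were thus high in Rps27 and low in Rps27rt, and Sham 2 and MI 1 the reverse. Rps27rt took 16.2%, 51.2%, 53.6% and 15.2% of the counts of both, while the sum of both was 128, 113, 114 and 117 CPM. The group difference was -0.10 ± 0.44 for Rps27 and 0.002 ± 0.73 for Rps27rt, and that of the log2 ratio 0.02 with a pooled SD of 1.81 (exact permutation test, p = 1). The coding sequences of both, from the GENCODE M21 annotation of GRCm38, are shown to explain why their counts are uncertain. They are identical over all 252 bases (stop codon left out), so no letter is in capitals.
Rps27 and Rps27rt: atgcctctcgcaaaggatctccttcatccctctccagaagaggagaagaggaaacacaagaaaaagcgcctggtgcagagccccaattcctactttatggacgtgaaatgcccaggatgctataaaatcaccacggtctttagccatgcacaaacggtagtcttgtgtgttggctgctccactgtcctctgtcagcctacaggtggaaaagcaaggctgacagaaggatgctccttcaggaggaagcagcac
Of the 225 windows of 150 bases in the Rps27rt transcript, 196 (87.1%) also occur in a Rps27 transcript, so most reads from Rps27rt fit Rps27 too. How the authors' counting divided such reads is not stated in the sources used here, and the separate levels of these genes are therefore uncertain. Their sum does not depend on how reads were divided between them. Sharing of reads with other rows was not examined. Rps28 was, like Rps27, higher in Sham 1 and MI 2 than in Sham 2 and MI 1, with 42.7, 23.6, 25.2 and 35.9 CPM (-0.12 ± 0.34). Erythroid markers were higher in the same pair of libraries, and their part in this was not tested. Rpl41 was high in Sham 1 and MI 1, at 213, 137, 218 and 135 CPM (0.01 ± 0.32).

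**Figure D5:**
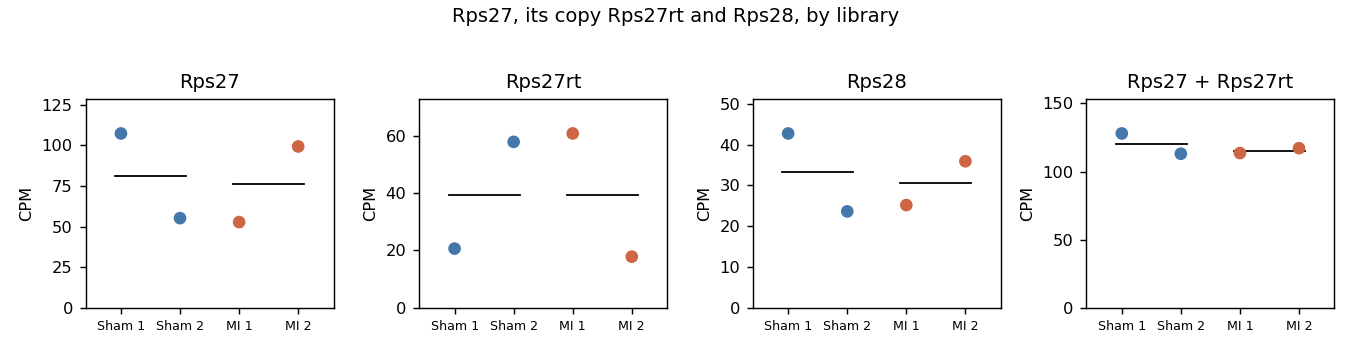
Level in each library (y axis, CPM, linear from 0) of Rps27, Rps27rt, Rps28 and the sum of Rps27 and Rps27rt; lines are group means of 2 libraries. Rps27 is high in Sham 1 and MI 2 and Rps27rt in Sham 2 and MI 1, while their sum stays between 113 and 128 CPM.

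Beside the members, 9 lists of other translation genes were described. In edgeR 0 genes of any list passed an adjusted p under 0.05, and the counts that follow are at an unadjusted p under 0.05, where 4.51% of all genes tested were lower and 7.12% higher. Further ribosome components with other names had 0 of 7 genes at that level (median -0.03). Rps3a1 had 319, 309, 302 and 297 CPM.

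Genes that build ribosomes had mostly negative differences. Of 42 assembly factors, 5 were lower and 0 higher at an unadjusted p, 40 had a negative difference (median -0.27), and for 25 the MI libraries were both below the Sham libraries, as for 21.9% of all genes tested. Nolc1, a nucleolar phosphoprotein, had 28.7, 26.3, 17.5 and 19 CPM (-0.59 ± 0.14, edgeR adjusted p = 0.326). Midn, which stands in the list but is known for bringing nuclear proteins to the proteasome, had 98.8, 93.7, 62.2 and 70.9, and Rrs1, which helps assemble the large subunit, 20.5, 19.1, 12.4 and 13.7. In these 3 genes the groups did not overlap. The factors of highest FPKM differed less, Rrp1 with 90.4, 87.4, 89.3 and 89.0 CPM and Sbds with 46.8, 58.5, 42.7 and 46.7. The median stayed negative over the other scalings and tools computed for this list, from -0.28 to -0.03. Over these the median of all genes tested ran from -0.010 to 0.23. The list median was -0.33 to -0.20 with any 1 library left out. By library, the median was -0.20 without Sham 1, -0.32 without Sham 2, -0.21 without MI 1 and -0.33 without MI 2. Of 14 genes of RNA polymerase I, which makes ribosomal RNA, 1 was lower, the subunit Twistnb at 9.41, 10.4, 6.08 and 6.50 CPM (-0.66 ± 0.18), and the median was -0.04. Polr1d had 35.4, 27.3, 32.4 and 25 CPM.

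The ribosome of the mitochondrion, whose nuclear genes are separate from the members, had 7 of 78 genes lower (4.51% over all genes) and 0 higher at an unadjusted p. The median was -0.22 and 72 differences were negative. With library totals the median was 0.004, while that of all genes tested moved from 0.003 to 0.23. Mrpl15 had 34.5, 37.4, 25 and 24 CPM (-0.56 ± 0.13, edgeR adjusted p = 0.323) and Mrpl2 49.8, 45.6, 35.2 and 34.9. In these genes, and in 51 of the 78, the MI libraries were both below the Sham libraries (21.9% over all genes). Those of highest FPKM, Mrps21 and Mrpl12, had 84.4, 71.3, 65.9 and 71.2 CPM and 131, 105, 93.8 and 104. The median of the 78 genes was -0.12 without Sham 1, -0.32 without Sham 2, -0.16 without MI 1 and -0.25 without MI 2.

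Translation factors also had more negative than positive differences. Of 34 initiation factor genes, 4 were lower, against 4.51% over all genes, and 0 higher (median -0.15, and 0.08 with library totals). Library totals moved the median of all genes tested from 0.003 to 0.23. Eif5 had 58.6, 128, 36.1 and 44.8 CPM (-1.21 ± 0.39), a difference of -0.54 without Sham 2. Eif1ax had 54.7, 49.4, 39.1 and 41.6. Eif1, the start codon factor, had 277, 273, 214 and 232 CPM (-0.30 ± 0.13). Among 13 elongation and termination genes 2 were lower, the release factor Etf1 at 104, 96.3, 73.2 and 72.6 CPM (-0.46 ± 0.12) and the recycling factor Abce1 at 61.2, 57.0, 46.2 and 47.9. The median of that list was -0.16, and 0.07 with library totals, where the median of all genes also rose. It was 0.02 without Sham 1. Without Sham 2, MI 1 and MI 2 the elongation median was -0.26, -0.11 and -0.17. The initiation median was -0.07, -0.19, -0.14 and -0.15 without Sham 1, Sham 2, MI 1 and MI 2.

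Other genes with TOP mRNAs, some of which stand in the lists above, had 1 of 24 higher and 0 lower (median -0.07). The higher gene was Vim, the intermediate filament of mesenchymal cells, with 121, 194, 344 and 252 CPM (0.92 ± 0.29). Tpt1 had 1105, 950.4, 922 and 1029.9 CPM, and Pabpc1, the poly(A) binding protein, 104, 90.8, 128 and 119 (0.34 ± 0.14). Of 17 regulators of TOP mRNAs in the mTOR pathway, 0 passed and the median was -0.04. The translation repressor Eif4ebp1 had 40.1, 47.4, 52.0 and 58.2 CPM (0.33 ± 0.15), the kinase Akt1 183, 173, 157 and 168, and the transcription factor Myc 8.26, 10.8, 6.44 and 6.75. Of 15 genes of ribosome quality control, 0 passed (median -0.03), with Edf1 at 61.5, 51.2, 55.5 and 64.8 CPM.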

How the data were processed

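Per the labels' protocols, heart RNA was selected for poly(A), made into strand-marked libraries and sequenced as paired reads of 150 bases. The authors deposited 1 table with an estimated count and an FPKM (fragments scaled to gene length and library size) per gene and library. The submitters' processing notes name the aligner HISAT2 2.0.4, the assembler StringTie 1.3.4d, the trimmer cutadapt 1.9, and UMI-tools. Not given in the sources used here are the genome build, the use of strand and the treatment of reads that map to several places. Positions equal those of GENCODE M21 (GRCm38) for 71 of the 83 members and are printed as deposited. Low estimated counts pile up at multiples of 4, so 12 counts (about 3 fragments) were taken as the floor, for counting error only.

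Groups come from the sample titles. The members and gene lists were chosen with earlier results of these data known, so their counts are descriptions. Counts were filtered with filterByExpr (minimum count 10, minimum total 15; 18475 genes left), scaled by TMM (factors 0.877, 0.975, 1.15 and 1.02) and tested 2-sided with edgeR 4.0.16 (quasi-likelihood, R 4.3.3), with Benjamini-Hochberg adjustment over all genes tested. Alternatives used DESeq2 1.42.0, limma 3.58.1 on log2(FPKM + 1) and log2(FPKM + 0.1), other scalings and filters, and each library left out. Paralogue ratios are log2 of counts + 1. The steps were tested on simulated counts. Named were the 8 members with the smallest p in each direction, paralogue pairs, the 3 highest and 3 lowest in FPKM, 7 members fixed by name, those beside the total of 48, the 5 genes most like Rpl3l, and per partner list the highest in FPKM or smallest in p; 1 such gene is not reported here. Rpl4, Rpl5, Rpl7, Rpl37a, Rpl41, Rps15a and Rps28 were named after their values were seen. Promoter sequences are from RefSeq (GRCm38.p6).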

Additional observations from a re-analysis of the deposited data

How the results depend on the processing

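In all alternatives run with all 4 libraries, 0 members were called at an adjusted p under 0.05. Of these only DESeq2 called any gene of the whole table (638), so the others say nothing about the members in particular. The median log2 difference of the members, -0.05, was 0.18 with library totals only, 0.16 in limma on log2(FPKM + 1) and on log2(FPKM + 0.1), 0.086 without mitochondrial transcripts, -0.0022 when scaled to the summed count of the members and 0.037 among genes with a mean FPKM of at least 5, and ran from -0.086 to 0.018 with 1 library left out. The counts at an unadjusted p that follow are for alternatives with all 4 libraries. Members higher at an unadjusted p under 0.05, 1 as reported (1316 of all 18475 genes), numbered 4 with library totals (2314 of 18475). They also numbered 4 in both limma fits (1845 and 1850 of 12962 genes). There were 2 without mitochondrial transcripts (1968 of 18439), with scaling to the members (1564 of 18475) and with a mean FPKM of at least 5 (460 of 4481). Members lower with all 4 libraries, 0 as reported (834 of all 18475 genes), numbered 2 in DESeq2 (1022 of 18475). The number was 1 with RLE scaling (887 of 18475), with counts divided by 4 (863 of 18475) and with scaling to the members (614 of 18475). Of 240 values for 16 named members 3 changed sign: Rpl26 was -0.013 without Sham replicate 2, Rpl38 -0.045 without MI replicate 1 and Rpl36 0.0033 with library totals, while leaving out 1 library gave up to 0.56 for Rpl26 and 0.38 for Rpl38. Of 381 values for 26 other named genes 8 did. Hbs1l was 0.047 with library totals and 0.034 and 0.040 in limma (pseudocounts 1 and 0.1). Rpl7l1 was 0.13, 0.11 and 0.12 there, 0.036 without mitochondrial transcripts and -0.24 to 0.037 with 1 library left out. The cause was not tested. DESeq2 called Eif5, Midn and Mrpl15 lower (adjusted p = 0.0415, 0.0476 and 0.0462), which edgeR did not. Deviations of same-numbered libraries from their group means had a correlation of -0.056 over all genes tested and -0.45 over the members. With 2 libraries per group this cannot decide whether the numbers pair them. With the replicate block the median of the members was -0.058 and 1 was higher. The MI minus Sham difference in the members' share of counts was 0.143 percentage points as reported. It was 0.102 without mitochondrial transcripts and 0.154 with the pseudogene rows added. Both moved from the reported difference by less than 1 SD between replicates, although the shares themselves changed more. For the paralogue ratios that yardstick decides nothing. With 2 libraries per group, leaving out 1 cannot move the group difference of a ratio beyond its pooled SD. FPKM changes a ratio only by fixed gene lengths. The ratios of Rpl22l1, Rps27l, Rps27rt and Rps4l took either sign with 1 library left out. The leave-one-out medians of the partner lists were added after seeing the data.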
